A study of Rattus norvegicus with 19 samples.

Results

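The genes described here encode the proteins that carry calcium into, within and out of the heart muscle cell, together with the calmodulins, kinases and anchoring proteins that adjust this traffic. They are a list of 33 gene symbols drawn up by name, with earlier results of these data known, and all 33 were found among the 17455 symbols of the counts. By role, 8 are channels, exchangers and pumps of the cell surface with their subunits and Stim1, a sensor of the reticulum that opens 1 of them, 13 others belong to the sarcoplasmic reticulum, 9 are calmodulins, kinases or their partners, and 3 act in mitochondria. All 33 passed the filter on low counts and were tested among 12388 genes.

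In a ventricular cardiomyocyte, depolarization opens the L-type calcium channel, and the calcium that enters opens the ryanodine receptor Ryr2, which releases the much larger store held on calsequestrin in the sarcoplasmic reticulum. Relaxation follows when the pump SERCA2, encoded by Atp2a2 and restrained by phospholamban (Pln), returns calcium to the store, while the sodium-calcium exchanger Slc8a1 carries the rest out of the cell. The calmodulin-dependent kinase CaMKII and protein kinase A phosphorylate both the release channel and phospholamban, and slow calcium re-uptake is a known feature of hearts that relax poorly.

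RNA of rat left ventricles was sequenced as 19 libraries, each labelled as a biological replicate, to compare heart failure with preserved ejection fraction (HFpEF) and its treatment across 7 groups. All rats were Sprague–Dawley, given as wild type in the labels, and 24 weeks old at the start. HFpEF was produced without any genetic change, by adding L-NAME, which blocks the making of nitric oxide, to the water (0.5 g/L) and giving a diet that drew 60% of its kilocalories from fat. The total count per library ran from 7430539 to 13017754 (median 9951011). Control 5w (3 libraries) and HFpEF (3 libraries) were taken at week 5, without and with that induction. The other groups were taken at week 9, namely control 9w without induction (3 libraries) and induced rats that then received, for 4 weeks, the vehicle PBS (untreated, 3 libraries), empagliflozin at 0.35 g/kg/day (EMPA, 2 libraries), pirfenidone at 0.3 g/kg/day (PFD, 2 libraries) or both drugs at those doses (EMPA + PFD, 3 libraries). Empagliflozin inhibits the sodium-glucose cotransporter SGLT2, and pirfenidone is an antifibrotic drug. Levels are given as CPM, a gene's count over the TMM-scaled size of its library, in the order of the replicates, and are not compared between genes because no transcript lengths were used. A gene rose or fell where edgeR's quasi-likelihood test gave a Benjamini-Hochberg adjusted p under 0.05 over the 12388 genes, and differences are log2 fold changes with their standard error (SE). Where libraries are said not to overlap, this describes few libraries and is no test. How many of all genes separate likewise was not counted.

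Several libraries went against their labels or stood apart from their group. All hearts are labelled male, but the Y-linked gene Eif2s3y had 0 counts in 7 libraries, namely HFpEF replicates 1 and 3, all untreated and both PFD libraries, and 613 to 1321 counts in the other 12. Ddx3y, also Y-linked, had 1 to 23 counts in every library and did not separate these 7 from the 12, and Kdm5d and Uty were not among the symbols. The rats of each group included both sexes, while the methods, like the labels, give the sequenced ventricles as those of males. Eif2s3y had counts in all libraries of control 9w vs control 5w and of EMPA + PFD against EMPA or control 9w, and 0 in all of PFD vs untreated, so its presence did not separate the groups there. In the other pairwise comparisons libraries with and without counts stood on different sides, wholly or in part. Whether labels were exchanged between libraries was not tested. The transplantation antigen gene RT1-CE16, picked after its values were seen, had 0 to 3 counts in each of the 8 libraries from EMPA, HFpEF and control 5w and 308 to 922 in the other 11, so a difference in stock or origin and the groups on either side of that line cannot be told apart. This line runs between control 5w and control 9w, between HFpEF and EMPA + PFD, and between EMPA and each other group of week 9.

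The tissue was checked against 12 markers of ventricular and general cardiomyocytes (Myh6), all of which were counted in every library. The gene named in brackets for each list had the highest mean CPM over the 19 libraries, with no correction for transcript length, and was not in all lists the top gene of every library. The summed level of these 12 was 107000, 52250 and 57520 CPM in control 5w, 18340, 29890 and 49170 in HFpEF, 47300, 56320 and 49570 in control 9w and 86950, 24030 and 81490 in untreated. It was 66030 and 55230 CPM in EMPA, 88430 and 92910 in PFD and 103200, 118300 and 93850 in EMPA + PFD. The heart muscle signal was lower in each HFpEF library than in any control 5w library, was high in EMPA + PFD, and was low in untreated replicate 2 against the other untreated libraries. In bulk tissue, fewer cardiomyocytes and less of this RNA per cardiomyocyte cannot be told apart. The 7 fibroblast markers (Col3a1) summed to 4475, 44930 and 36430 CPM in control 5w and 17180, 9598 and 12690 in HFpEF, against 2078 to 8389 at week 9. Control 5w replicates 2 and 3 were the richest of all libraries in collagen RNA, and replicate 1 was not. The 5 atrial markers (Nppa) summed to 5197, 188 and 23340 CPM in control 9w and 48.00, 14870 and 484 in untreated. Control 9w replicate 3 and untreated replicate 2 were highest in this sum, and Sln, which inhibits the calcium pump of the atria, had 695 and 518 CPM there against 0.317 and 0.632 CPM in the other untreated libraries. Control 9w replicate 1 carried atrial RNA as well, with 156 CPM of Sln and 31.2 of Bmp10. Over the 19 libraries, the summed markers of endothelium (6 genes, Vwf) spanned 1280 to 3350 CPM, of smooth muscle and pericytes (6, Pdgfrb) 740.5 to 2865, of leukocytes (6, Csf1r) 131 to 883 and of red cells (5, Hbb) 141 to 3884. EMPA replicate 2 stood apart as the highest library in smooth muscle markers. The sums of skeletal muscle (6, Acta1, which heart muscle also expresses) spanned 202 to 4365 CPM and of fat (4, Cfd) 6.39 to 58.5. HFpEF replicate 1 was the highest library in leukocyte and in fat markers. Myh1 and Myh4, which define skeletal fibres, stayed under 1 CPM in all libraries.

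**Figure D1:**
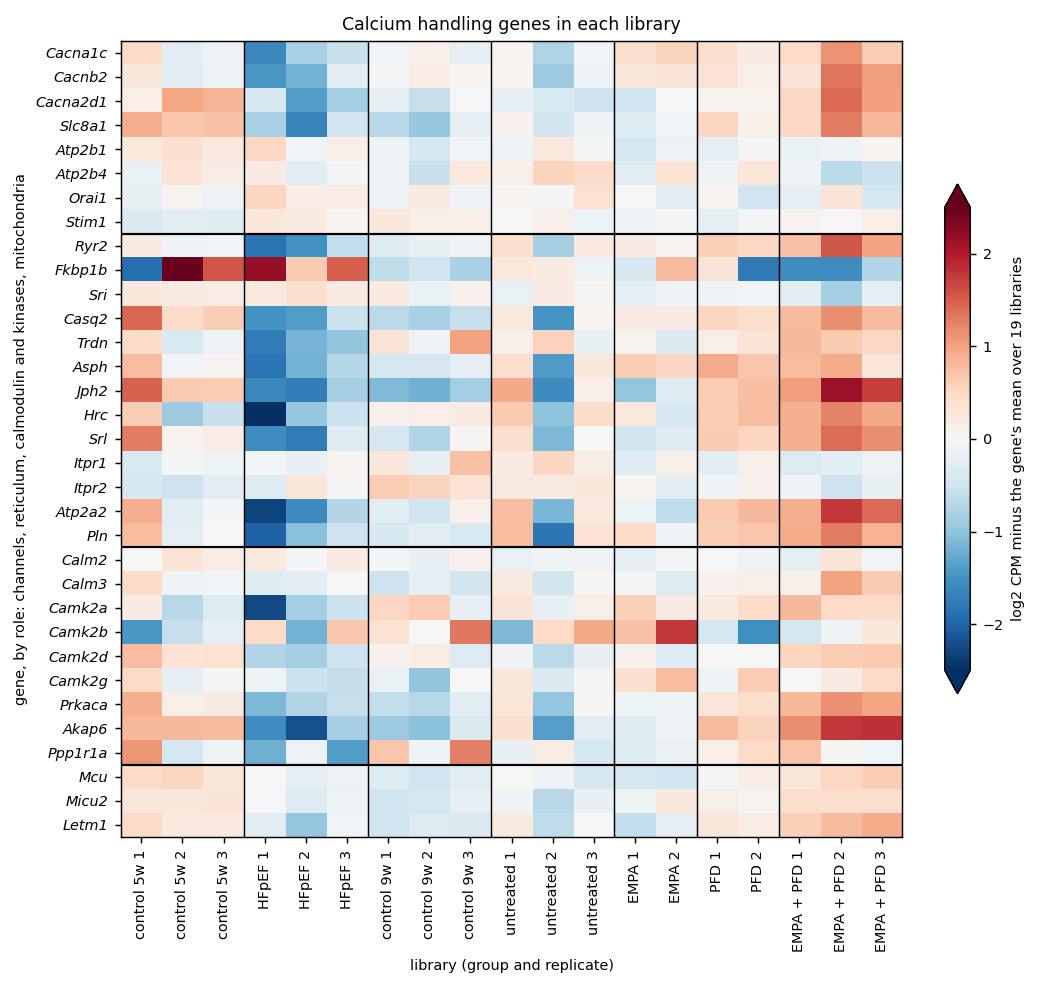
Level of each of the 33 genes (rows, grouped by role) in each of the 19 libraries (columns, grouped), as log2 CPM minus the gene's mean over the libraries, red above and blue below. HFpEF replicate 1 was the lowest library for 11 genes and EMPA + PFD replicate 2 the highest for 13, at TMM scaling; untreated replicate 2 stands apart from the other untreated libraries.

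Disease establishment was read from HFpEF against control 5w. Of the 33 genes, 16 fell and 1 rose, against 10.2% and 9.83% of all genes tested, and 12 of the falls were at least 2-fold, a rule met by 8.69% of all genes in either direction. The median log2 fold change was −0.86 over the 33 genes and 0.02 over all genes, but when the libraries were scaled to the summed cardiomyocyte markers in place of TMM it became 0.27, with 3 falls and 4 rises (Orai1, Stim1, Sri and Itpr2), while the median of all genes moved to 1.26. On that scale 45.6% of all genes rose and 0.379% fell, so the rises were general, and it is no test of genes that already went up. Jph2, Akap6 and Casq2 were the 3 that still fell on that scale, by 1.08, 1.10 and 0.78. By role, 7 of 13 genes of the reticulum, 3 of 8 channels, exchangers, pumps and their partners, 3 of 9 calmodulins and kinases and all 3 of mitochondria fell. Among the markers tested, 3 of 6 of endothelium and 1 of 4 of red cells rose and 2 of 12 of cardiomyocytes fell, and their part in the result was not tested. HFpEF replicate 1 stood apart, with the highest summed markers of leukocytes (883 CPM) and of fat (58.5 CPM) of all libraries.

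At the cell surface, Cacna1c, which encodes the pore of the L-type channel, had 232, 137 and 151 CPM in control 5w and 54.5, 94.7 and 114 in HFpEF. Cacna2d1, the auxiliary subunit that brings the pore to the membrane, had 27.9, 48.8 and 45.1 CPM in control 5w and 19.02, 9.44 and 13.8 in HFpEF. Slc8a1, the sodium-calcium exchanger, had 467, 400.0 and 412 in control 5w and 141, 79.5 and 179 CPM in HFpEF. For each of these genes all HFpEF libraries lay below all control libraries, with the widest gap in Slc8a1. Slc8a1 fell 3.21-fold, a log2 change of −1.68 (SE 0.28, edgeR quasi-likelihood, Benjamini-Hochberg adjusted p = 0.00217), Cacna2d1 by 1.52 on the log2 scale (SE 0.28) and Cacna1c by 0.98 (SE 0.28, edgeR quasi-likelihood, Benjamini-Hochberg adjusted p = 0.0249). Cacna1c lost its call without control 5w replicate 1 (edgeR quasi-likelihood, Benjamini-Hochberg adjusted p = 0.108), HFpEF replicate 1 (0.0845) or HFpEF replicate 2 (0.054). Cacnb2, the cytoplasmic subunit of the channel, was lower in each HFpEF library (31.6, 37.9 and 71.5 CPM) than in any control (105, 72.2 and 78.5) but missed the threshold (log2 fold change −0.86, edgeR quasi-likelihood, Benjamini-Hochberg adjusted p = 0.0625). Stim1, the reticulum's sensor for store-operated entry, was the gene that rose, from 61.4, 64.9 and 63.7 CPM in control 5w to 95.5, 92.8 and 81.3 in HFpEF. The libraries did not overlap, and the rise was 0.51 on the log2 scale (SE 0.10, edgeR quasi-likelihood, Benjamini-Hochberg adjusted p = 0.00471). Orai1, the channel that Stim1 opens, and the calcium pumps of the plasma membrane, Atp2b1 and Atp2b4, did not pass, with log2 fold changes of 0.39, −0.08 and −0.15.

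In the reticulum, Ryr2 had 1378, 1092 and 1129 CPM in control 5w and 333, 415 and 777 in HFpEF. Atp2a2 had 10085, 4488 and 5176 CPM in control 5w and 1092, 1774 and 3200.3 in HFpEF. Pln had 5412, 2728 and 3172 in control 5w and 783, 1534 and 2219.8 CPM in HFpEF. For all of them the groups did not overlap, HFpEF replicate 3 lay nearest the controls, and control 5w replicate 1 was far above its own group in Atp2a2 and Pln. Ryr2 fell 2.36-fold (log2 −1.24, SE 0.33, edgeR quasi-likelihood, Benjamini-Hochberg adjusted p = 0.0194) and Atp2a2 3.26-fold (log2 −1.70, SE 0.49, edgeR quasi-likelihood, Benjamini-Hochberg adjusted p = 0.0259). Pln missed the threshold (log2 −1.32, SE 0.50, edgeR quasi-likelihood, Benjamini-Hochberg adjusted p = 0.0756), though DESeq2 called it (adjusted p = 0.0271). The call of Atp2a2 was lost without control 5w replicate 1, HFpEF replicate 1 or HFpEF replicate 2 (edgeR quasi-likelihood, Benjamini-Hochberg adjusted p = 0.103, 0.0875 and 0.0814). The same omissions took away the call of Ryr2 (0.0558, 0.0688 and 0.0706 by edgeR quasi-likelihood, Benjamini-Hochberg adjusted p), while without untreated replicate 2, which shares in the variance, Pln fell (adjusted p = 0.0137 in that test). Casq2, the calsequestrin that stores calcium, had 2639.8, 1368 and 1504 CPM in control 5w and 347, 371 and 672 in HFpEF. Jph2, the junctophilin that holds the reticulum against the T-tubule, had 276, 156 and 154 in control 5w and 32.2, 29.7 and 55.7 CPM in HFpEF. Srl, which encodes the lumenal calcium-binding protein sarcalumenin, had 984, 426 and 461 in control 5w and 138, 119.8 and 322 CPM in HFpEF. None of these overlapped, and Jph2 showed the largest fold of the 33, falling 4.98-fold (log2 −2.31, SE 0.49, edgeR quasi-likelihood, Benjamini-Hochberg adjusted p = 0.00708), with log2 changes of −1.99 (SE 0.39) in Casq2 and −1.69 (SE 0.44) in Srl. Asph, whose locus encodes junctin, had 199, 111 and 123 CPM in control 5w and 32.4, 51.1 and 71.5 in HFpEF, and fell by 1.48 on the log2 scale (SE 0.39, edgeR quasi-likelihood, Benjamini-Hochberg adjusted p = 0.0175). Without control 5w replicate 1, HFpEF replicate 1 or HFpEF replicate 2, neither Asph (edgeR quasi-likelihood, Benjamini-Hochberg adjusted p = 0.0667, 0.0616 and 0.0516) nor Srl (0.0719, 0.0581 and 0.0638) was called. Trdn, which encodes triadin and with junctin ties calsequestrin to Ryr2, fell by 1.30 (SE 0.29, edgeR quasi-likelihood, Benjamini-Hochberg adjusted p = 0.00952). The other 5 of the reticulum without a call, Hrc, Fkbp1b, Sri, Itpr1 and Itpr2, had log2 fold changes of −1.003, 0.01, 0.06, 0.11 and 0.40. Fkbp1b, a stabilizer of the Ryr2 channel, was close to the floor of detection in all libraries (at most 1.94 CPM), so its values carry little information.

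**Figure D2:**
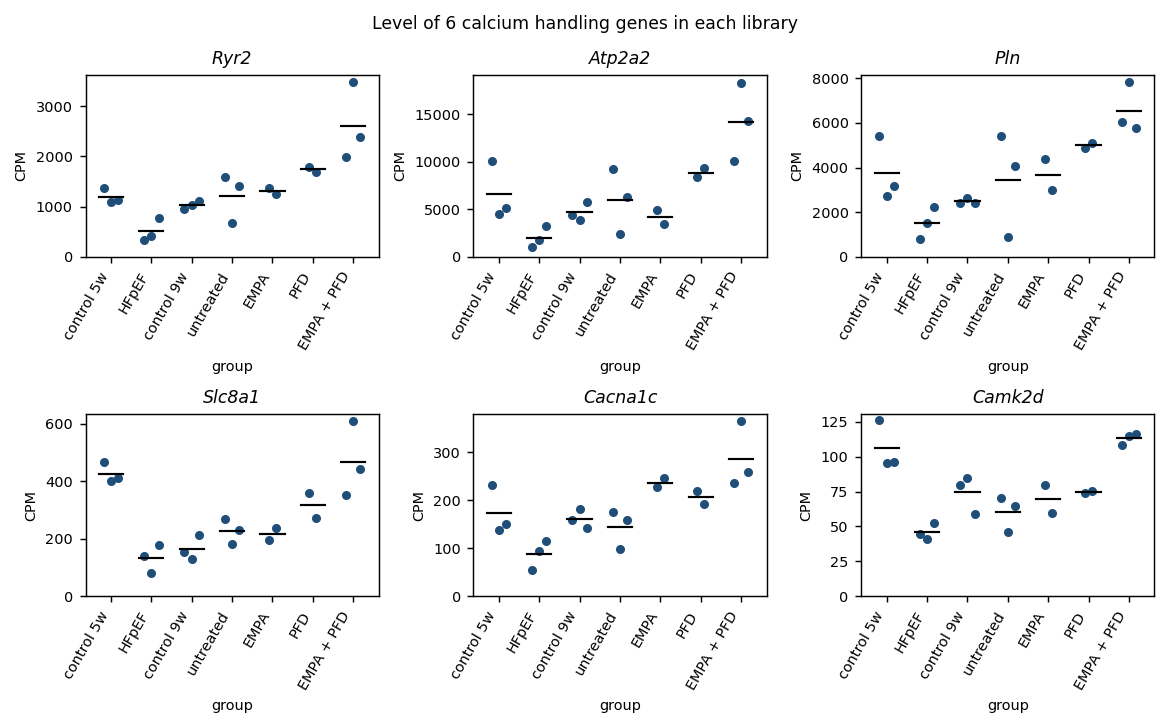
CPM of Ryr2, Atp2a2, Pln, Slc8a1, Cacna1c and Camk2d (vertical axes, from 0) in each library (dots) of the 7 groups, with the group mean as a bar. In all 6 genes the 3 HFpEF libraries lie below the 3 control 5w libraries, at TMM scaling, while on the cardiomyocyte marker scale Cacna1c and Camk2d had log2 fold changes of 0.19 and 0.05. How many of all genes separate in this way was not counted, and 4436 of 12388 had an unadjusted p under 0.05 there (edgeR quasi-likelihood).

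Among the kinases and their partners, Camk2d, the main cardiac CaMKII gene, had 126, 95.5 and 96.4 CPM in control 5w and 44.6, 41.3 and 52.2 in HFpEF. Prkaca, the catalytic subunit of protein kinase A, had 344, 207 and 217 in control 5w and 85.97, 111 and 126 CPM in HFpEF. Akap6, which anchors protein kinase A at the reticulum and the nuclear envelope, had 168, 168 and 166 in control 5w and 32.6, 20.8 and 53.5 CPM in HFpEF. No HFpEF library reached a control library in any of them, and the control values of Akap6 were nearly alike. Akap6 fell 4.68-fold (log2 −2.23, SE 0.39, edgeR quasi-likelihood, Benjamini-Hochberg adjusted p = 0.00245), Prkaca by 1.25 on the log2 scale (SE 0.27) and Camk2d by 1.21 (SE 0.18, edgeR quasi-likelihood, Benjamini-Hochberg adjusted p = 0.00107). The remaining calmodulins and kinases did not pass, with log2 fold changes of −0.04 in Calm2, −0.32 in Calm3, −0.82 in Camk2a, 0.85 in Camk2b, −0.50 in Camk2g and −1.15 in Ppp1r1a, an inhibitor of protein phosphatase 1. Calm2, 1 of the genes that encode the same calmodulin protein, kept within 242 and 363 CPM in all 19 libraries.

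In mitochondria, Mcu, the pore of the calcium uniporter, had 24.8, 25.9 and 22.04 CPM in control 5w and 17.7, 15.2 and 15.99 in HFpEF. Micu2, a gatekeeper of that pore, had 123, 124 and 127 in control 5w and 100.3, 81.5 and 92.9 CPM in HFpEF. Letm1, an inner membrane protein of cation exchange, had 64.8, 55.01 and 55.2 in control 5w and 38.97, 23.9 and 44.2 CPM in HFpEF. Again all HFpEF libraries lay below all controls, by smaller folds than in the reticulum genes that fell: log2 changes were −0.57 (SE 0.13) for Mcu, −0.45 (SE 0.14, edgeR quasi-likelihood, Benjamini-Hochberg adjusted p = 0.0427) for Micu2 and −0.71 (SE 0.22) for Letm1. Mcu kept its call whichever single library was left out. Micu2 lost it without any 1 of the 6 libraries compared (edgeR quasi-likelihood, Benjamini-Hochberg adjusted p = 0.0509 to 0.139) and without some of other groups, and Letm1 without any 1 of control 5w or HFpEF replicate 1 or 2 (0.0555 to 0.119). On the marker scale the values were 0.69, 0.81 and 0.54, so that their direction depended on the scaling. That scale moves all genes up in HFpEF, where 45.6% of them rose, so the turn is not particular to these genes.

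The number of falls and rises in HFpEF against control 5w depended on single libraries and on the libraries at odds with their labels. It was 17 in all and 11 without the HFpEF libraries that lack Eif2s3y (9 falls and rises of Stim1 and Itpr2), which leaves 1 HFpEF library assumed to vary like the other groups. Left out alone, control 5w replicate 1 gave 10, HFpEF replicate 1 gave 11 and HFpEF replicate 2 gave 11. Of all genes, 5.86% rose and 6.24% fell without control 5w replicate 1, against 9.83% and 10.2% with all libraries. The shares were 7.66% and 6.33% without HFpEF replicate 1, and 6.54% and 5.49% without HFpEF replicate 2. With control 5w replicates 2 and 3, rich in collagen RNA, left out together, 16 genes passed, 14 of them among the 17, with the lone control library assumed to vary like the other groups. A fit on only the 6 libraries compared called 6, all falls: Cacna2d1, Slc8a1, Casq2, Jph2, Camk2d and Akap6. In that fit 2.70% of all genes rose and 3.31% fell.

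Control 9w was set against control 5w to follow the healthy heart between the weeks. Here 12 of the 33 genes fell and 2 rose, against 17.2% and 17.3% of all genes, with a median log2 fold change of −0.49 (−0.04 over all genes). On the marker scale the median was 0.05 against 0.33 for all genes, and 2 fell, Casq2 and Jph2, against 0.396% of all genes (2.85% rose). At the surface, Slc8a1 stood at 154, 128 and 213 CPM and Cacna2d1 at 21.3, 16.7 and 24.8 in control 9w, both below every control 5w library, and fell by 1.37 (SE 0.28, edgeR quasi-likelihood, Benjamini-Hochberg adjusted p = 0.00262) and 0.95 (SE 0.27). Cacna1c, at 159.6, 182 and 142 CPM, overlapped control 5w and did not pass. Jph2 had 45.8, 42.7 and 54.3 CPM in control 9w, far below its level of control 5w, and fell 4.10-fold (log2 −2.04, SE 0.48, edgeR quasi-likelihood, Benjamini-Hochberg adjusted p = 0.00567). Casq2 had 615, 557 and 658 CPM and fell by 1.59 (SE 0.38). Among other genes of the reticulum, Ryr2 (951, 1038 and 1110.3 CPM), Atp2a2 (4400.5, 3863 and 5805), Pln (2415, 2619 and 2424), Srl (303, 239 and 409) and Asph (86.3, 86.8 and 99.3) did not pass, with log2 fold changes of −0.22, −0.49, −0.60, −0.98 and −0.67. Pln, Srl and Asph lay below every control 5w library and Ryr2 and Atp2a2 overlapped them. Whether these genes differ from Jph2 and Casq2 in their change was not tested. Akap6 had 51.2, 47.1 and 74.2 CPM, Prkaca 122, 116 and 154 and Camk2d 79.6, 84.98 and 58.9, and all fell, by 1.54 (SE 0.38), 0.97 (SE 0.27) and 0.51 (SE 0.18). Camk2d lost its call without control 5w replicate 1 (edgeR quasi-likelihood, Benjamini-Hochberg adjusted p = 0.137) or 3 (0.0501) or control 9w replicate 1 (0.064) or 3 (0.143). Mcu at 14.3, 12.5 and 14.8 CPM, Micu2 at 72.2, 74.9 and 88.4 and Letm1 at 32.9, 36.6 and 36.3 lay below every control 5w library and fell by 0.80, 0.67 and 0.72. The rises were in Stim1 (log2 0.52, SE 0.10, edgeR quasi-likelihood, Benjamini-Hochberg adjusted p = 0.00158) and in the inositol trisphosphate receptor Itpr2, which went from 62.3, 58.04 and 68.7 to 128, 123 and 107 CPM without overlap (log2 0.92, SE 0.16, edgeR quasi-likelihood, Benjamini-Hochberg adjusted p = 0.000843). Atp2b1 also fell (−0.51), as did the barely detected Fkbp1b, whose libraries overlapped. Fkbp1b had 1, 25 and 13 counts in control 5w and at most 5 in any library of week 9. It passed the low-count filter only through libraries of week 5. Its fall, counted among the 12, thus follows from the filter and is no finding. Without control 9w replicate 2 the calls of Cacna2d1, Prkaca, Letm1, Atp2b1 and Fkbp1b were lost (edgeR quasi-likelihood, Benjamini-Hochberg adjusted p = 0.0747, 0.0583, 0.0525, 0.0944 and 0.105), and each of them also without at least 1 library of control 5w. With control 5w replicates 2 and 3 left out together, 8 genes passed, all among the 14, and with control 9w replicates 1 and 3 and untreated replicate 2 left out, which keeps 1 control 9w library, 10 did. The make-up of the tissue differed between these groups too: 5 of 6 markers of endothelium and 2 of 5 of atrial muscle rose, while 6 of 7 of fibroblasts, 3 of 6 of leukocytes, 1 of 4 of skeletal muscle and 1 of 12 of cardiomyocytes fell, and of 6 of smooth muscle 1 rose (Myh11) and 1 fell (Pdgfrb). The summed endothelial markers were 1533, 1280 and 1463 CPM in control 5w and 3271, 3350 and 2824 in control 9w, without overlap. The part of these shifts in the result was not tested.

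The consequence of untreated disease at week 9 was read from untreated against control 9w, where none of the 33 genes passed in edgeR, against 1.78% of all genes in either direction. At an unadjusted p under 0.05 there was 1, Jph2, against 18.2% of all genes, and DESeq2 called 0. The median log2 fold change was 0.20, and 0.01 over all genes. Of the markers tested, 2 of 4 of red cells fell, and their part in the result was not tested. Summed, the red cell markers were 1491, 1787 and 1153 CPM in control 9w and 227, 181 and 297 in untreated. Untreated replicate 2 set the spread: Atp2a2 had 9178, 2414 and 6318 CPM in untreated, Pln 5406, 904 and 4085 and Jph2 191, 33.3 and 111. In these genes replicates 1 and 3 lay above all control 9w libraries, and replicate 2, the library rich in atrial and poor in ventricular markers, below them. Without that library Jph2 rose by 1.67, and without it and control 9w replicate 3 Jph2 and Prkaca rose, by 1.77 and 0.83. With control 9w replicate 1 left out as well, 0 passed in edgeR, with 6 at an unadjusted p under 0.05 (20.1% of all genes, and 0 in DESeq2 on all libraries), and the 1 control 9w library was assumed to vary like the other groups. The difference between the disease effect at week 9 and that at week 5 was tested directly. It passed the test above 0 for 13 genes and below 0 for 2, against 9.76% and 10.2% of all genes, with 3.55 for Jph2 (SE 0.68, edgeR quasi-likelihood, Benjamini-Hochberg adjusted p = 0.00412) and −0.70 for Stim1 (SE 0.14, edgeR quasi-likelihood, Benjamini-Hochberg adjusted p = 0.00473). On the marker scale 0 of the 33 genes passed in edgeR, against 0.0969% of all genes above 0 and 2.16% below. There 5 had an unadjusted p under 0.05, beside 25.4% of all genes. DESeq2 at its own scaling called 16, against 12.5% of all genes above 0 and 13.4% below. The median difference was 0.81, beside −0.02 over all genes, and on the marker scale −0.39 beside −1.12. The 15 calls were 7 without untreated replicate 1, 8 without HFpEF replicate 2, control 9w replicate 2 or untreated replicate 3, and 9 without control 5w replicate 1 or control 9w replicate 1. Atp2a2 (2.05, edgeR quasi-likelihood, Benjamini-Hochberg adjusted p = 0.0463) and Ryr2 (1.48) lost their calls in each of these. Of all genes, 6.95% passed above 0 and 8.35% below without HFpEF replicate 2. The shares were 7.68% and 9.05% without control 5w replicate 1, and 5.99% and 6.90% without control 9w replicate 1. In this difference 3 of 4 markers of red cells and 2 of 6 of endothelium passed below 0, and 2 of 12 of cardiomyocytes and 1 of 6 of smooth muscle above it, and their part in the result was not tested.

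The effect of co-treatment was read from EMPA + PFD against untreated. Of the 33 genes, 12 rose and 1 fell, against 6.60% and 5.52% of all genes, and 7 rises were at least 2-fold, a rule met by 3.82% of all genes in either direction. The median log2 fold change was 0.71 (−0.03 over all genes), but on the marker scale it was −0.29, with 1 rise (Akap6, 1.10) and 4 falls (Atp2b4, Sri, Itpr1 and Itpr2), while the median of all genes moved to −1.21. There 0.291% of all genes rose and 31.7% fell. The summed cardiomyocyte markers themselves were 93850 to 118300 CPM in EMPA + PFD and 24030 to 86950 in untreated, and of the markers tested 2 of 5 atrial and 1 of 6 endothelial fell and 1 of 4 of red cells rose. Their part in the result was not tested.

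At the surface, Cacna1c had 175, 98.97 and 159 CPM in untreated and 235, 364 and 259 in EMPA + PFD, Cacna2d1 21.4, 19.2 and 17.4 in untreated and 35.95, 66.5 and 50.9 in EMPA + PFD. Slc8a1 had 269, 181 and 229.7 in untreated and 353, 608 and 442 CPM in EMPA + PFD. The treated libraries lay above the untreated in each, with EMPA + PFD replicate 2 highest. Cacna2d1 rose 2.64-fold (log2 1.40, SE 0.28, edgeR quasi-likelihood, Benjamini-Hochberg adjusted p = 0.0115), and Cacnb2, Slc8a1 and Cacna1c by 1.23, 1.05 and 0.99 on the log2 scale. Atp2b4 was the gene that fell, from 40.6, 53.7 and 50.8 CPM to 33.8, 22.8 and 25.1, a log2 change of −0.83 (SE 0.24, edgeR quasi-likelihood, Benjamini-Hochberg adjusted p = 0.0373). Stim1, Orai1 and Atp2b1 did not pass (0.08, −0.22 and −0.11).

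In the reticulum, Ryr2 had 1580.4, 670.4 and 1408 CPM in untreated and 1979, 3469.9 and 2389.8 in EMPA + PFD, and Jph2 reached 204, 439 and 325 CPM there. Both were above all untreated libraries in every treated library, and rose by 1.10 (SE 0.33, edgeR quasi-likelihood, Benjamini-Hochberg adjusted p = 0.0447) and 1.53 (SE 0.47, edgeR quasi-likelihood, Benjamini-Hochberg adjusted p = 0.0481). Atp2a2 reached 10066, 18286 and 14215 CPM and Pln 6062, 7817 and 5766. No treated library overlapped untreated in either gene, but neither passed: log2 fold changes were 1.25 (SE 0.48, edgeR quasi-likelihood, Benjamini-Hochberg adjusted p = 0.0934) and 0.92 (SE 0.50, edgeR quasi-likelihood, Benjamini-Hochberg adjusted p = 0.21). DESeq2 called Atp2a2 (adjusted p = 0.0326), and so did edgeR without untreated replicate 1 (quasi-likelihood, Benjamini-Hochberg adjusted p = 0.0428). The call of Ryr2 lay at the threshold and was lost without untreated replicate 2 (edgeR quasi-likelihood, Benjamini-Hochberg adjusted p = 0.169) or 3 (0.0704), without EMPA + PFD replicate 2 (0.177) or 3 (0.0825), and also without any 1 library of control 9w, EMPA or PFD or control 5w replicate 2 or 3. Casq2 went from 1171, 350.1 and 1013 to 1684, 2181 and 1684 CPM, Srl from 545, 185 and 406 to 747, 1066 and 907 and Asph from 157, 43.8 and 142 to 200.0, 221 and 141. Casq2 and Srl did not overlap and Asph did, and all missed the threshold (log2 1.13, 1.26 and 0.71). Trdn, Hrc, Itpr1, Itpr2, Sri and Fkbp1b also did not pass, and the last 4 were lower in EMPA + PFD (log2 −0.55, −0.50, −0.45 and −1.27).

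Among the kinases, Camk2d had 70.4, 46.4 and 64.8 CPM in untreated and 108, 115 and 117 in EMPA + PFD. Prkaca had 231, 95.97 and 192 in untreated and 326, 411 and 371 CPM in EMPA + PFD, and Akap6 127, 36.5 and 78.4 in untreated and 215, 324 and 339.8 in EMPA + PFD. All treated libraries lay above all untreated ones, and Camk2d was even across the treated hearts. Akap6 rose 3.64-fold (log2 1.86, SE 0.38, edgeR quasi-likelihood, Benjamini-Hochberg adjusted p = 0.0127), the largest rise of the 33, Prkaca by 1.09 and Camk2d by 0.91 (SE 0.18, edgeR quasi-likelihood, Benjamini-Hochberg adjusted p = 0.0116). Calm2, Calm3, Camk2a, Camk2b, Camk2g and Ppp1r1a did not pass, with Calm3 at 0.68 (edgeR quasi-likelihood, Benjamini-Hochberg adjusted p = 0.0566). The paper, which used DESeq2, reports significant rises of Camk2d, Prkaca and Calm3 with co-treatment. In mitochondria, Mcu had 18.04, 16.2 and 13.5 CPM in untreated and 21.9, 25.5 and 27.4 in EMPA + PFD. Micu2 had 94.7, 63.1 and 88.7 in untreated and 137, 137 and 136 CPM in EMPA + PFD, and Letm1 54.2, 29.8 and 46.8 in untreated and 70.1, 79.98 and 88.8 in EMPA + PFD. None overlapped, the treated values of Micu2 were nearly equal, and all 3 rose at TMM scaling, by 0.65 (SE 0.13), 0.73 (SE 0.15, edgeR quasi-likelihood, Benjamini-Hochberg adjusted p = 0.0119) and 0.87 (SE 0.22), while on the marker scale the values were −0.53, −0.29 and −0.08.

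This comparison rested on few libraries. The 13 calls became 1 without untreated replicate 2 (Akap6), 1 without EMPA + PFD replicate 2 (Camk2d), 4 without EMPA + PFD replicate 3 (Cacna2d1, Camk2d, Akap6 and Micu2) and 5 without untreated replicate 3 (the same and Mcu). The share of all genes called in these fits is not given, so the loss is not read as particular to these genes. With untreated replicate 2 and control 9w replicate 3 left out together, 3 were called: Camk2d, Akap6 and Micu2, by 0.74, 1.52 and 0.57. With control 9w replicate 1 left out as well, for its atrial RNA, 0 were called in edgeR, with 18 at an unadjusted p under 0.05 (18.7% of all genes, and 19 called in DESeq2 on all libraries). A fit on only the 6 libraries compared called 0 in edgeR, where 0.0348% of all genes rose and 0.00869% fell. There 20 had an unadjusted p under 0.05 (28.0% of all genes). DESeq2 on all libraries called 19, against 12.1% of all genes that rose and 9.31% that fell. No untreated library has Eif2s3y counts and all EMPA + PFD libraries have them, so what lies behind this difference and the treatment cannot be told apart.

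**Figure D3:**
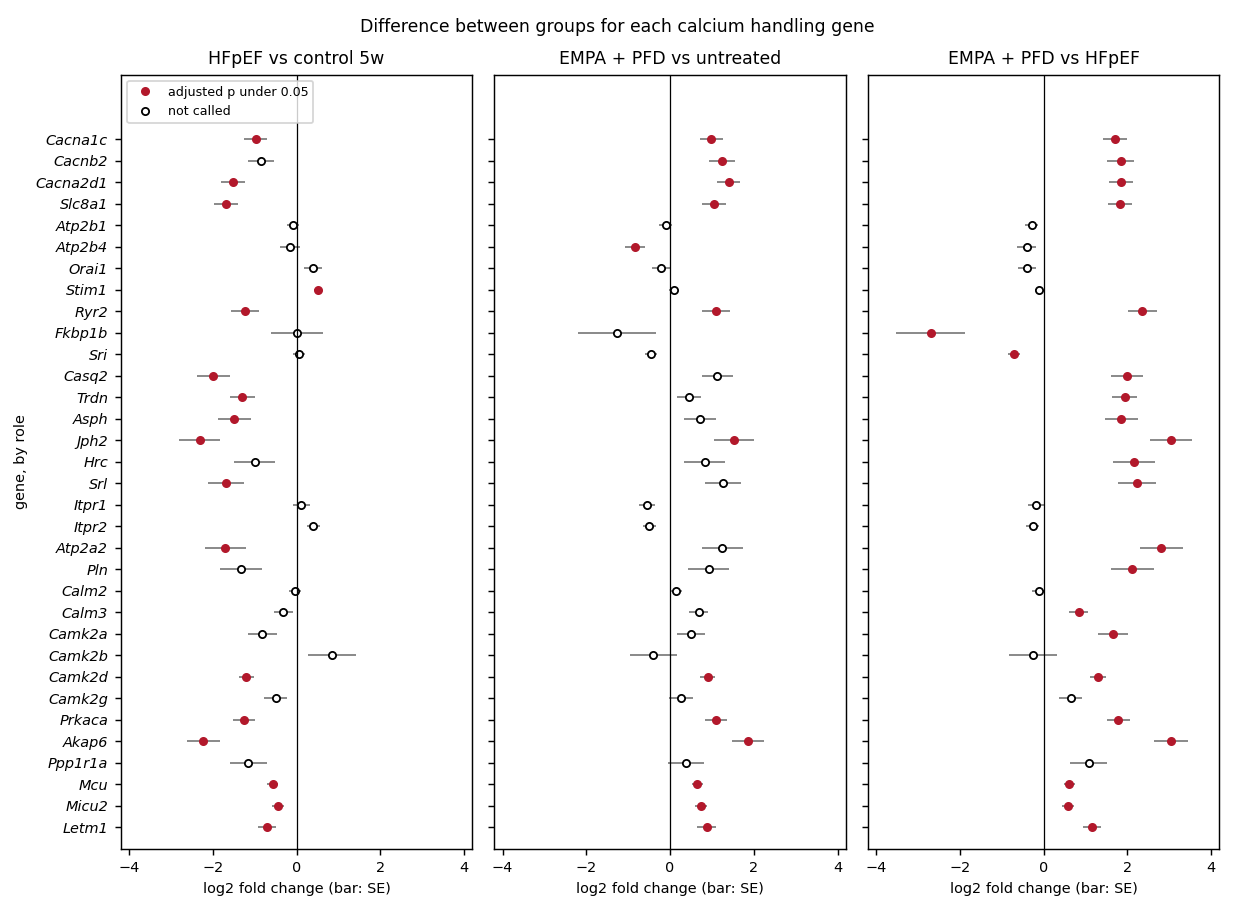
Log2 fold change (horizontal axis, dot) with its SE (bar) of the 33 genes, by role from top to bottom, in 3 comparisons that share libraries; red dots passed the test. At TMM scaling 26 genes lie left of 0 in HFpEF vs control 5w, and 25 and 23 right of 0 in EMPA + PFD vs untreated and vs HFpEF, and the median of the 33 genes changed sign on the cardiomyocyte marker scale in each of them.

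Each drug alone was also set against untreated. None of the 33 genes passed in EMPA in edgeR, against 0.0404% of all genes, with 2 at an unadjusted p under 0.05 (Cacna1c and Micu2, beside 8.63% of all genes) and 0 in DESeq2. The same counts, 0 in edgeR, 2 at an unadjusted p under 0.05 (Akap6 and Micu2) and 0 in DESeq2, held in PFD, against 0.00807% of all genes that passed and 5.21% at the unadjusted threshold. Over the 33 genes the median log2 fold change was −0.07 in EMPA (0.01 over all genes) and 0.34 in PFD (−0.02), and on the marker scale −0.28 and −0.52 beside −0.35 and −0.99 over all genes. In EMPA the genes of the surface stood at 227 and 246 CPM for Cacna1c, 17.6 and 24.7 for Cacna2d1 and 196 and 236 for Slc8a1, and in PFD at 219 and 193, 26.3 and 26.5 and 361 and 271. Cacna1c lay above all untreated libraries in both drugs. Ryr2 had 1366 and 1244 CPM in EMPA and 1795 and 1695 in PFD, and Atp2a2 4877 and 3462 in EMPA and 8367 and 9351 in PFD. Pln had 4392 and 2983 in EMPA and 4869 and 5124 CPM in PFD, Casq2 1133 and 1123 in EMPA and 1416 and 1316 in PFD, and Jph2 50.9 and 78.7 in EMPA and 154 and 166 in PFD. Ryr2 was above all untreated libraries in PFD and within their range in EMPA, and Jph2 was within it in both. Srl had 295 and 326 CPM in EMPA and 635 and 589 in PFD, and Asph 179 and 168 in EMPA and 222 and 189 in PFD. Camk2d had 80.04 and 59.5 in EMPA and 73.6 and 75.1 CPM in PFD, Prkaca 170.5 and 172 in EMPA and 230.0 and 254 in PFD, and Akap6 77.9 and 90.1 in EMPA and 165 and 139.9 in PFD. Both PFD libraries also exceeded all untreated ones in Cacna2d1, Slc8a1, Casq2, Srl, Asph, Camk2d, Akap6 and Micu2, and both EMPA libraries did so in Asph. So few libraries often separate without any difference, and the share of all genes that did so was not counted. Mcu had 13.1 and 12.8 CPM in EMPA and 17.5 and 20.4 in PFD, Micu2 93.8 and 124 in EMPA and 112 and 106 in PFD, and Letm1 30.5 and 39.4 in EMPA and 57.6 and 52.6 in PFD. Mcu was thus lower in EMPA than in any untreated library, though it did not pass (log2 −0.30, edgeR quasi-likelihood, Benjamini-Hochberg adjusted p = 0.61).

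Against EMPA alone, 8 of the 33 genes rose in EMPA + PFD, compared with 5.30% of all genes that rose and 4.42% that fell. The median log2 fold change was 0.66 (−0.05 over all genes), and −0.15 against −0.83 on the marker scale. The genes that rose were Jph2 (2.31), Akap6 (1.80), Cacna2d1 (1.27), Letm1 (1.19), Slc8a1 (1.11), Prkaca (1.11), Mcu (0.95, SE 0.15, edgeR quasi-likelihood, Benjamini-Hochberg adjusted p = 0.00928) and Camk2d (0.70). On the marker scale 0 were called in edgeR, with 5 at an unadjusted p under 0.05 (21.0% of all genes), and without either EMPA library, which leaves 1 that is assumed to vary like the other groups, 0 were called, with 14 and 9 at an unadjusted p under 0.05 (21.9% and 18.5% of all genes). Without EMPA + PFD replicate 2 or replicate 3 only Mcu was called, and without control 9w replicate 1 there were 5 (Cacna2d1, Jph2, Akap6, Mcu and Letm1). Markers of red cells (3 of 4) and smooth muscle (2 of 6, Myh11 and Tagln) fell, the former mainly through EMPA replicate 1 and the latter through replicate 2. Summed, those of red cells were 2252 and 438 CPM in EMPA and 141, 468 and 207 in EMPA + PFD, and those of smooth muscle 1019 and 2865 and 857, 740.5 and 761.7, and their part was not tested. Against PFD alone, 0 of the 33 genes passed in edgeR and in DESeq2. At an unadjusted p under 0.05 there were 5 in edgeR (Cacna2d1, Camk2d, Akap6, Mcu and Letm1) and 10 in DESeq2. Of all genes, 0% passed in edgeR and 10.2% met its unadjusted threshold, and the share for the 10 in DESeq2 is not given. The median was 0.39 over the 33 genes and 0.01 over all genes. The interaction of the drugs, which asks whether empagliflozin acted differently with pirfenidone than without, gave 0 of 33 in both tools, with 3 at an unadjusted p under 0.05 in edgeR and 4 in DESeq2, beside 0.00807% of all genes that passed in edgeR. These 3 were Mcu, Letm1 and Jph2, at a threshold that 9.13% of all genes met in edgeR. For the 4 in DESeq2 no such share is given. All comparisons with untreated share its libraries, and all with EMPA + PFD share those.

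Set against the starting point of treatment, EMPA + PFD differed from HFpEF in most of the 33 genes: 21 rose and 2 fell, against 22.3% and 24.5% of all genes. Of these, 18 rises and 1 fall were at least 2-fold, a rule met by 22.7% of all genes in either direction. For the 33 genes the median log2 fold change was 1.30 (−0.09 over all genes), and on the marker scale −0.58 with −1.99 for all genes, where Ryr2, Jph2, Atp2a2 and Akap6 were the 4 that rose and 14 fell, where 0.799% of all genes rose and 84.4% fell. Atp2a2 rose 7.02-fold (log2 2.81, SE 0.51, edgeR quasi-likelihood, Benjamini-Hochberg adjusted p = 0.00101), Ryr2 5.14-fold (log2 2.36, SE 0.34) and Pln 4.33-fold (log2 2.11, SE 0.51, edgeR quasi-likelihood, Benjamini-Hochberg adjusted p = 0.00489), all without overlap. The call of Pln was lost without the HFpEF libraries that lack Eif2s3y (edgeR quasi-likelihood, Benjamini-Hochberg adjusted p = 0.0626). Jph2 and Akap6 had the largest rises, 3.04 (SE 0.50) and 3.04 (SE 0.40). Hrc, the histidine-rich calcium-binding protein of the reticulum lumen, went from 89.9, 285 and 377 CPM to 1012, 1290.3 and 1048 and rose by 2.16 (SE 0.51, edgeR quasi-likelihood, Benjamini-Hochberg adjusted p = 0.00393). Camk2a rose from 3.23, 8.53 and 10.7 CPM to 27.2, 21.9 and 21.2 (log2 1.65) and Calm3 from 70.9, 72.99 and 86.99 to 95.4, 178 and 139 (log2 0.84). Sri, which encodes sorcin, a calcium-binding inhibitor of Ryr2, went the other way, from 74.1, 82.4 and 72.5 to 52.03, 34.9 and 53.1 CPM (log2 −0.71, SE 0.15, edgeR quasi-likelihood, Benjamini-Hochberg adjusted p = 0.00228). The other fall, and the one of at least 2-fold, was the barely detected Fkbp1b. That gene passed the low-count filter only through libraries of week 5, so its fall is no finding. Of the markers, 9 of 12 of cardiomyocytes rose, and 5 of 7 of fibroblasts, 4 of 6 of leukocytes, 3 of 6 of smooth muscle, 3 of 4 of red cells, 2 of 6 of endothelium, 1 of 3 of fat and 1 of 4 of skeletal muscle fell, so the tissue differed as well, and its part in the result was not tested. The summed markers of smooth muscle, 1994, 1014 and 1182 CPM in HFpEF, were highest in replicate 1. The groups differ in week as well as in drugs, so the 4 weeks between them and the treatment cannot be told apart, and they lie on opposite sides of the RT1-CE16 line.

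Against control 9w, which was taken at the same week, EMPA + PFD had 18 rises and 3 falls among the 33 genes, against 17.1% and 16.6% of all genes. The median log2 fold change was 0.83 (−0.08 over all genes), and on the marker scale −0.22 against −1.11, with Jph2 and Akap6 higher and Itpr1 and Itpr2 lower as the 4 that passed, against 0.694% of all genes higher and 17.1% lower. Atp2a2 was 3.03-fold higher (log2 1.60, SE 0.49, edgeR quasi-likelihood, Benjamini-Hochberg adjusted p = 0.0215), Pln 2.63-fold (log2 1.40, edgeR quasi-likelihood, Benjamini-Hochberg adjusted p = 0.044), Jph2 6.77-fold and Slc8a1 2.83-fold. The call of Pln was lost without any 1 of the control 9w or EMPA + PFD libraries (edgeR quasi-likelihood, Benjamini-Hochberg adjusted p = 0.0613 to 0.117), and that of Atp2a2 without control 9w replicate 1 or 2 or EMPA + PFD replicate 2 (0.0698, 0.0824 and 0.0755). The falls were in Itpr2 (log2 −0.78, SE 0.16, edgeR quasi-likelihood, Benjamini-Hochberg adjusted p = 0.00261), Itpr1 (−0.55) and Sri (−0.50). Itpr1 lost its call without control 9w replicate 1 or 3 or any 1 library of EMPA + PFD (edgeR quasi-likelihood, Benjamini-Hochberg adjusted p = 0.0758 to 0.249) and without some of other groups, and Sri without control 9w replicate 1 or EMPA + PFD replicate 2. Itpr2 had 78.2, 57.6 and 72.5 CPM in EMPA + PFD and Itpr1 65.8, 69.6 and 76.2, against 101, 72.4 and 137 for Itpr1 in control 9w, so that Itpr2 did not overlap and Itpr1 did. The number of calls was 13 without EMPA + PFD replicate 2, 13 without control 9w replicate 1 and 12 without the 3 libraries that carry atrial RNA, which keeps 1 library of control 9w. Without control 9w replicate 1 the shares of all genes moved as well, to 11.1% that rose and 11.6% that fell. Of the markers, 5 of 6 of endothelium, 4 of 5 of atrial muscle and 3 of 4 of red cells fell and 2 of 12 of cardiomyocytes rose, and their part in the result was not tested.

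Over the 10 pairwise comparisons, 8 of the 33 genes passed in 6 of them, namely Slc8a1, Cacna2d1, Jph2, Camk2d, Prkaca, Akap6, Mcu and Letm1, and 5 passed in none, namely Orai1, Calm2, Camk2b, Camk2g and Ppp1r1a. Across the 19 libraries the highest level exceeded the lowest 20.6-fold in the barely detected Fkbp1b, 16.8-fold in Atp2a2, 16.3-fold in Akap6, 14.8-fold in Jph2, 14.3-fold in Hrc and 10.4-fold in Ryr2, but 1.5-fold in Calm2, 1.55-fold in Stim1 and 1.93-fold in Atp2b1. Summed over the 13 reticulum genes, the level was 22140, 10950 and 12390 CPM in control 5w, 3095, 4880 and 7985 in HFpEF, 9829, 9395 and 11700 in control 9w and 19440, 5303 and 14580 in untreated. It was 13250 and 10090 CPM in EMPA, 18600 and 19710 in PFD and 22320, 35080 and 26810 in EMPA + PFD. The libraries low in this sum, HFpEF replicates 1 and 2 and untreated replicate 2, were also the ones lowest in the summed cardiomyocyte markers, and EMPA + PFD replicate 2 was highest in both.

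**Figure D4:**
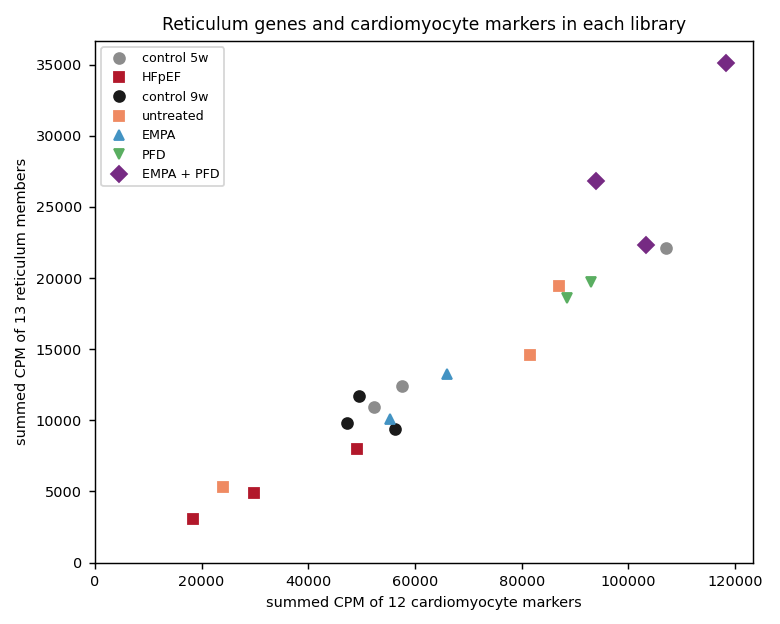
Summed CPM of the 13 reticulum genes (vertical axis) against summed CPM of the 12 cardiomyocyte markers (horizontal axis), 1 symbol per library and group. The lowest and the highest library were the same in both sums, HFpEF replicate 1 (3095 and 18340 CPM) and EMPA + PFD replicate 2 (35080 and 118300 CPM).

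Among 67 other genes of calcium signalling, 62 were found in the counts and 60 were tested. In HFpEF against control 5w, 5 rose and 14 fell, against 9.83% and 10.2% of all genes, and in control 9w against control 5w 10 rose and 16 fell, against 17.3% and 17.2%. In EMPA + PFD against untreated 9 rose and 7 fell (6.60% and 5.52% of all genes), against HFpEF 27 and 11 (22.3% and 24.5%), against EMPA 6 and 3 (5.30% and 4.42%) and against control 9w 21 and 5 (17.1% and 16.6%). In untreated against control 9w, in EMPA or PFD against untreated and in EMPA + PFD against PFD, 0 of the 60 passed in edgeR, with 14, 5, 6 and 6 at an unadjusted p under 0.05 and 6, 0, 0 and 1 in DESeq2, while 18.2%, 8.63%, 5.21% and 10.2% of all genes met the unadjusted threshold. The genes that passed in the most comparisons included regulatory subunits of protein kinase A. Prkar1a had 495, 397 and 434 CPM in control 5w, 193, 155 and 216 in HFpEF, 321, 160.3 and 260.5 in untreated and 411, 547 and 448 in EMPA + PFD. It fell by 1.23 in HFpEF (SE 0.23, edgeR quasi-likelihood, Benjamini-Hochberg adjusted p = 0.00373) and rose by 0.92 with co-treatment (SE 0.23, edgeR quasi-likelihood, Benjamini-Hochberg adjusted p = 0.0243), without overlap in either comparison, at TMM scaling, while on the marker scale it stood at 0.02 and −0.02, with the signs turned. Prkar2a fell by 1.42 and rose by 1.23, and the anchoring protein gene Akap7 fell by 0.73 and rose by 0.82, against −0.14, 0.28, 0.54 and −0.33 on the marker scale, where the direction of Akap7 turned. Catalytic subunits of phosphatases followed, Ppp3cb of calcineurin at −0.50 and 0.50 and Ppp1cb of protein phosphatase 1 at −0.75 and 0.76, and both turned in direction on the marker scale (0.77, −0.58, 0.51 and −0.23). On that scale the adjusted p of these 5 genes (edgeR quasi-likelihood, Benjamini-Hochberg) was at least 0.115. The opposite directions held for the inositol trisphosphate receptor Itpr3 (0.81 in HFpEF and −0.82 with co-treatment), the store sensor Stim2 (0.53 and −0.48) and Bin1, which shapes T-tubules (0.64 and −0.75), and all of these passed in both, with overlap only in Bin1 with co-treatment. The marker scale is no test of these 3, since it moves all genes up in HFpEF and down with co-treatment, the way they already went.

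The promoter windows of 4 reticulum genes are shown, taken from RefSeq on the GRCr8 build, while the counts were made on rn6. Of the 33 genes, 27 had a window in that table. The 250 bases before the start were searched on both strands for the GC box GGGCGG and for the MEF2 motif, which do not overlap in these windows. The GC box lay in at least 1 window of 15 of the 27 genes, against 33.5% of the 27457 genes in the table, and the MEF2 motif in that of 1, Casq2, against 3.32%, with all windows of a gene counted together. The release channel, the pump, the pump's inhibitor and the storage protein are shown 5′ to 3′ on the strand of the gene, with matches in capitals, of which Atp2a2 and Ryr2 have 3 GC boxes each (the first pair in Ryr2 overlapping), Casq2 has the MEF2 motif and Pln has none. Atp2a2 is at chr12:39733269-39733518 (+), Ryr2 at chr17:63081277-63081526 (+), Casq2 at chr2:192214306-192214555 (+) and Pln at chr20:33172244-33172493 (+), and G and C make up 80%, 72%, 46.4% and 44% of the windows in that order.
Atp2a2: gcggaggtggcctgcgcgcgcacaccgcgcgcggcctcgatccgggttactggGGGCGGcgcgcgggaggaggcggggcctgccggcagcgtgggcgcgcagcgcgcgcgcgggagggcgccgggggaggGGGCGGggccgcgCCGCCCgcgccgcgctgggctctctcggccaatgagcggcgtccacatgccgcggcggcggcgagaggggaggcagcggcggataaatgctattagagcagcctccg
Ryr2: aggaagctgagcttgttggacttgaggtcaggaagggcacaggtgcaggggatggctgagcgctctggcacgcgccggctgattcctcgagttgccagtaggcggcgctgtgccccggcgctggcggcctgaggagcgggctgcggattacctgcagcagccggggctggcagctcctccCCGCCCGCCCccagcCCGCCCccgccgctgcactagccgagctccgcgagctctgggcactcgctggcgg
Casq2: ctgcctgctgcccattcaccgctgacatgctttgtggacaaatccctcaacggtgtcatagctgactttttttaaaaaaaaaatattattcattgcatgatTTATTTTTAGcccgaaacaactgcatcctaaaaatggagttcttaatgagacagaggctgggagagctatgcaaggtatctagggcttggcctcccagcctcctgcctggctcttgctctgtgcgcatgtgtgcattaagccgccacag
Pln: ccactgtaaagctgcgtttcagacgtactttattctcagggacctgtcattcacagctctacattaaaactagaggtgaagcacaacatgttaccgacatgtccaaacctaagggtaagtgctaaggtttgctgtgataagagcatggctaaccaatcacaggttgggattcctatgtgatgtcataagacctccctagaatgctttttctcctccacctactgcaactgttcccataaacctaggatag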

How the data were processed

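The counts per gene were deposited by the authors, whose steps were Trim Galore for trimming, HISAT2 for alignment to the rn6 build and htseq-count for counting (versions, overlap mode and strand setting not given in the sources used here). The 33 genes and the marker and pathway lists were chosen with earlier results of these data known. All 33 genes were named. Every library was given for Ryr2, Atp2a2, Pln, Slc8a1, Cacna1c and Camk2d and for 10 more that passed in the most of the 10 pairwise comparisons, ties by mean CPM. From the 67 other calcium signalling genes 8 were named by the same order. Genes with low counts were removed with filterByExpr (minimum count 10), which left 12388 of 17455 symbols, and libraries were scaled by TMM. A single quasi-likelihood model over the 7 groups was fitted with edgeR 4.0.16 (limma 3.58.1, R 4.3.3), each comparison was a contrast tested two-sided, and p-values were adjusted by Benjamini-Hochberg over all genes tested. The biological coefficient of variation was 0.257. The SE was the absolute log2 fold change divided by the square root of F. Alternatives were relative log expression scaling, no low-count filter, DESeq2 1.42.0, a fit on only the groups compared, a replicate block, scaling to the summed counts of 12 cardiomyocyte markers, 2 treatments of the libraries without Eif2s3y counts, and omission of each library. Omission of 2 libraries high in atrial markers, of these and control 9w replicate 1, and of 2 control 5w libraries high in collagen RNA was chosen after seeing the data. Promoter windows came from RefSeq (GRCr8).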

Additional observations from a re-analysis of the deposited data

Results flagged for a closer look

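For 15 of the 33 genes the disease effect at week 9 (untreated against control 9w) differed from that at week 5 (HFpEF against control 5w) by a direct test of the difference (edgeR quasi-likelihood, Benjamini-Hochberg adjusted p under 0.05), which is what flagged them. Among channels, exchangers and their partners the difference of log2 fold changes, week 9 minus week 5, was 1.40 for Cacna2d1, 2.14 for Slc8a1 and −0.70 for Stim1. In the reticulum it was 1.48 for Ryr2, 2.46 for Casq2, 1.81 for Asph, 3.55 for Jph2, 1.95 for Srl, −0.69 for Itpr2 and 2.05 for Atp2a2. Among kinases and anchoring proteins it was 0.90 for Camk2d, 1.66 for Prkaca and 2.71 for Akap6, and in mitochondria 0.77 for Mcu and 1.01 for Letm1. The difference was thus above 0 for 13 genes and below 0 for 2 at TMM scaling, against 9.76% and 10.2% of all genes. At week 9 itself, 0 of the 33 genes passed against control 9w in edgeR. The controls moved between the weeks too: Cacna2d1, Slc8a1, Casq2, Jph2, Camk2d, Prkaca, Akap6, Mcu and Letm1 fell and Stim1 and Itpr2 rose. Their part in the difference was not tested. With 1 library left out, the 15 calls became as few as 7. On the cardiomyocyte marker scale 0 of the 33 genes passed in edgeR, against 0.0969% of all genes higher and 2.16% lower. There 5 had an unadjusted p under 0.05, beside 25.4% of all genes. DESeq2 at its own scaling called 16, against 12.5% of all genes higher and 13.4% lower.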

How the results depend on the processing

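Of the 111 calls of a gene in a comparison, 111 kept direction and side of the threshold under relative log expression scaling and 110 with DESeq2. Calls were lost for 8 with no low-count filter, 16 with the replicate block, 34 of 109 with only the groups compared and 15 without the HFpEF libraries lacking Eif2s3y. Alternatives chosen after seeing the data lost 15 and 28 without the 2 or 3 libraries with atrial RNA and 16 without control 5w replicates 2 and 3, rich in collagen RNA. With each library left out in turn, 1829 of 2109 values were still called and 280 were not, and none changed direction. Scaling to the cardiomyocyte markers, which shifts all genes by one amount per library, kept 18 calls, weakened 62 and turned 31 in sign. In HFpEF vs control 5w the values became Cacna1c 0.191, Camk2d 0.055, Mcu 0.691, Micu2 0.814 and Letm1 0.545. In EMPA + PFD vs untreated the values became Slc8a1 −0.0184, Camk2d −0.112, Mcu −0.533, Micu2 −0.289 and Letm1 −0.0794. In EMPA + PFD vs HFpEF the values became Cacna1c −0.0601, Cacna2d1 −0.165, Slc8a1 −0.0746, Calm3 −1.05, Camk2a −0.012, Camk2d −0.577, Prkaca −0.0478, Mcu −1.32, Micu2 −1.36 and Letm1 −0.731. In EMPA + PFD vs EMPA the value became Camk2d −0.0742. In EMPA + PFD vs control 9w the values became Cacna1c −0.224, Cacnb2 −0.146, Asph −0.0169, Calm3 −0.0146, Camk2d −0.425, Mcu −0.196 and Micu2 −0.241. In the difference of disease effects the values became Camk2d −0.368, Mcu −0.354 and Letm1 −0.319. Leaving out control 5w replicates 2 and 3 turned Fkbp1b in control 9w vs control 5w to 1.13.

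The number of the 33 genes called moved by more than 1.5 times in these cases. In HFpEF vs control 5w it went from 17 to 6 with only the groups compared, 7 with marker scaling, 11 without the HFpEF libraries lacking Eif2s3y. A term for the presence of Eif2s3y is estimated within HFpEF alone, replicate 2 against 1 and 3, so there it gives the same estimate by construction (11), and elsewhere its counts, printed below, rest on 1 library and support nothing. Untreated vs control 9w went from 0 in edgeR (1 at an unadjusted p under 0.05, 0 in DESeq2) to 2, Jph2 and Prkaca, without the 2 libraries high in atrial markers, an alternative also chosen after seeing the data. In control 9w vs control 5w it went from 14 to 2 (Casq2 and Jph2) with marker scaling and 8 without the libraries high in collagen RNA. For EMPA + PFD vs untreated it went from 13 to 0 in edgeR with only the groups compared (20 at an unadjusted p under 0.05, 19 in DESeq2 on all groups), 5 with marker scaling, 5 with the Eif2s3y term, 3 (Camk2d, Akap6 and Micu2) without the 2 libraries high in atrial markers and 0 in edgeR without these and control 9w replicate 1 (18 at an unadjusted p under 0.05), also chosen after seeing the data. Against control 9w, EMPA + PFD went from 21 to 4 with marker scaling (Jph2, Akap6, Itpr1 and Itpr2) and 12 without those 3 libraries. In the difference of disease effects it went from 15 to 8 with only the groups compared, 8 with the Eif2s3y term and 0 in edgeR with marker scaling (5 at an unadjusted p under 0.05, 16 in DESeq2). In EMPA + PFD vs EMPA it went from 8 to 0 in edgeR with marker scaling (5 at an unadjusted p under 0.05, 12 in DESeq2) and to 3 (Akap6, Mcu and Letm1) with the replicate block. For that paired fit, libraries of different groups with the same replicate number were set side by side in 52 pairs. The correlation across genes of their deviations from their group means ran from −0.567 to 0.544 (median −0.0814). Such deviations cancel within each group and genes are not independent replicates, so this cannot show whether libraries of the same number share more than that number. The shares of all genes moved as well. With only the groups compared, 2.70% rose and 3.31% fell in HFpEF vs control 5w (9.83% and 10.2% in the full fit). Marker scaling gave 45.6% and 0.379% there. With only the groups compared, the shares were 0.0348% and 0.00869% in EMPA + PFD vs untreated (6.60% and 5.52%). For the difference of disease effects they were 6.44% and 6.62% (9.76% and 10.2%). The replicate block gave 2.12% and 1.36% in EMPA + PFD vs EMPA (5.30% and 4.42%). The cause was not tested in any of these cases. Where a count of calls in DESeq2 or without some libraries has no share of all genes beside it, it is not read as particular to the 33 genes.

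With 1 library left out the number of calls ran from 10 to 19 in HFpEF vs control 5w, 0 to 1 in untreated vs control 9w, 10 to 14 in control 9w vs control 5w, 1 to 18 in EMPA + PFD vs untreated, 22 to 25 against HFpEF, 0 to 12 against EMPA, 13 to 21 against control 9w and 7 to 17 in the difference of disease effects. It stayed at 0 in edgeR for EMPA and PFD vs untreated (2 and 2 at an unadjusted p under 0.05, 0 in DESeq2), EMPA + PFD vs PFD (5 and 0) and the interaction (3 and 0). A group left with 1 library is assumed to vary like the other groups. Groups of 2 or 3 libraries and counts near 0 for Fkbp1b limit what could be detected.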

Other observations

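Ratios of counts within a library do not depend on its scaling, and the pairs below were chosen after their values were seen. Pln counts per Atp2a2 count, the inhibitor over its pump, were 0.537, 0.608 and 0.613 in control 5w and 0.717, 0.865 and 0.694 in HFpEF, without overlap. The ratio was 0.549, 0.678 and 0.418 in control 9w, 0.589, 0.374 and 0.647 in untreated, 0.901 and 0.862 in EMPA, 0.582 and 0.548 in PFD and 0.602, 0.427 and 0.406 in EMPA + PFD. Both EMPA libraries stood close to the highest HFpEF library. Jph2 counts per Ryr2 count, which set the junctional tether against the release channel, were 0.2, 0.143 and 0.136 in control 5w, 0.0967, 0.0716 and 0.0718 in HFpEF, 0.0482, 0.0411 and 0.0489 in control 9w and 0.121, 0.0497 and 0.0791 in untreated. They were 0.0372 and 0.0633 in EMPA, 0.0857 and 0.0979 in PFD and 0.103, 0.126 and 0.136 in EMPA + PFD. The 3 libraries of control 9w were lower in this ratio than all libraries of control 5w and HFpEF, and EMPA + PFD lay within the range of control 5w or below it. Camk2d counts per Ryr2 count were 0.0918, 0.0875 and 0.0854 in control 5w, 0.134, 0.0994 and 0.0672 in HFpEF, 0.0837, 0.0818 and 0.0531 in control 9w and 0.0445, 0.0692 and 0.046 in untreated, with 0.0586 and 0.0479 in EMPA, 0.041 and 0.0443 in PFD and 0.0547, 0.0331 and 0.0488 in EMPA + PFD. HFpEF lay on both sides of control 5w in this ratio. No test was made on these ratios.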
